A study of Mus musculus with 16 samples.

Results

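The 10 genes described here encode regulators of G protein signalling and of small GTPases, together with a pair of activity-regulated kinases, and their RNA was followed in the mouse hippocampus after a kainic acid seizure with and without inhibition of MEK. They are the regulators of G protein signalling Rgs2, Rgs4 and Rgs7, the small GTPase genes Rasl11a, Rasd1, Gem and Rheb, the exchange factor gene Rapgef6, and the Polo-like kinase genes Plk2 and Plk3. The genes were chosen by measured values with earlier results of these arrays known, and the contrast that chose them is taken to be kainic acid against vehicle, so the difference between kainic acid and vehicle is given as a description, with no p for single members and counts of calls only beside the share over all probe sets. All 10 are among the 13180 genes that have a probe set of their own in the table, and each is described by its probe set with the highest mean over the 16 arrays, with no filter on intensity. Under the filter of the methods, which keeps a probe set above the array median in at least 3 arrays, Gem would be left out (above the median in 2 arrays) and the other 9 would stay, none of them through the kainic acid arrays only.

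Each array holds the RNA of 1 hippocampus from a 3-month-old male C57BL/6 wild-type mouse. The 4 untreated mice received no injection. The vehicle mice (n = 3), named as PBS in the labels and as a mixture of DMSO and PBS in the methods, are the controls for the injected groups. Kainic acid, an agonist of kainate-type glutamate receptors that causes seizures, was given intraperitoneally at 20 mg/kg to 3 mice whose hippocampus was taken 1 h after seizure onset. SL327, an inhibitor of MEK (the kinase that activates ERK), was given at 50 mg/kg, either 1 h before kainic acid (n = 3) or alone (n = 3). The labels give 1 h for the vehicle mice and for the mice given SL327 alone. For the in situ sections the paper gives a longer time after SL327, so the time under the inhibitor is not certain for these arrays. The levels are log2 intensities after RMA on Affymetrix mouse exon arrays, so a difference of 1 is a doubling.

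RGS proteins speed up GTP hydrolysis by heterotrimeric G protein alpha subunits and so shorten the signal of G protein coupled receptors. Small GTPases of the Ras superfamily switch between a GTP-bound active and a GDP-bound inactive state, with exchange factors loading GTP and GTPase activating proteins ending the signal. In hippocampal neurons several of these genes are transcribed within the first hour of strong activity, and their products feed back on receptor signalling, on calcium entry, on growth signalling and on dendritic spines.

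The arrays were alike in overall level, with array medians between 7.32 and 7.39 and a mean correlation with the other arrays of the same group between 0.968 and 0.984. Forebrain neuron markers (5 of 5 measured) had a median between -0.15 and 0.09 relative to vehicle on every array, and ranged in level from Camk2a, brighter than 99.9% of the table, to Neurod2 (54.2%) and Neurod6 (26.2%). The 3 measured dentate granule cell markers (Prox1, Dsp and Calb1) had a median between -0.84 and -0.58 relative to vehicle on the kainic acid arrays and between -0.29 and 0.30 on the arrays with SL327 and kainic acid. The median of the 4 interneuron markers was 0.18 to 0.20 on the kainic acid arrays, above the vehicle arrays (-0.05 to 0.09), and 0.01 to 0.10 with SL327 and kainic acid. The median of the 5 choroid plexus markers varied between mice, from -0.32 to 2.05 in untreated mice and from 0.23 to 1.06 in SL327 mice. In whole hippocampus, fewer cells of a type and less RNA per cell cannot be told apart, and the part of these markers in the results below was not tested.

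One mouse given SL327 and kainic acid, replicate 2, stood apart from the other two in activity-induced genes. Npas4, an activity-induced transcription factor gene, was 0.40 above the vehicle mean in this mouse against 4.26 and 4.54 in replicates 1 and 3, and Fos was 0.44 above against 2.36 and 2.01. Its correlation with its group (0.978) was within the range of the other arrays. The main results that hold this array are therefore given with and without it. It was singled out by low activity-induced genes, the kind of outcome measured here, so p values without it are conditional on that choice and do not replace those from all 3 mice.

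The promoters are printed to show where the cAMP response element, the site of the activity-regulated factor CREB, or only its shorter core lies directly before the start. The 250 bases before the annotated start were searched on both strands for the palindromic element TGACGTCA and for its shorter core TGACG, which is part of it and whose reverse complement is CGTCA; both are in capitals. RefSeq promoters (GRCm38.p6) matched 8 of the 10 genes, without Rasd1 and Gem. Printed are 6 of them, chosen to show the RGS genes, the largest kainic acid difference and both kinases, and each is written 5′ to 3′ in the direction of transcription.
Rgs2 (chr1:144004150-144004399, minus strand): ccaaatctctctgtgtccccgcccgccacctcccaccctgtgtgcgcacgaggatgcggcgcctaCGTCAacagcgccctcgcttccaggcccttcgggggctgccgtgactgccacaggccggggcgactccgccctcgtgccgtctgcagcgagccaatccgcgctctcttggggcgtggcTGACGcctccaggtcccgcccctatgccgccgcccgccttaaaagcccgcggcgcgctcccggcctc
Rgs4 (chr1:169747643-169747892, minus strand): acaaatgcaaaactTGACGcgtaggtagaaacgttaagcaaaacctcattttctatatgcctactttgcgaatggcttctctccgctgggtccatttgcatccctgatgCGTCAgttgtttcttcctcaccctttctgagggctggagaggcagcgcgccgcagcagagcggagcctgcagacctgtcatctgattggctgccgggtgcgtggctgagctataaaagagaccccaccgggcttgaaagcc
Rgs7 (chr1:175492546-175492795, minus strand): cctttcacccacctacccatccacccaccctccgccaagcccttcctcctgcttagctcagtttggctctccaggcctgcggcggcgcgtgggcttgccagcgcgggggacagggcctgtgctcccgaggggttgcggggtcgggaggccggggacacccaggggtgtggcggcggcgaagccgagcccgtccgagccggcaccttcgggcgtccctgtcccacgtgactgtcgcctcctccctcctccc
Rasl11a (chr5:146844821-146845070, plus strand): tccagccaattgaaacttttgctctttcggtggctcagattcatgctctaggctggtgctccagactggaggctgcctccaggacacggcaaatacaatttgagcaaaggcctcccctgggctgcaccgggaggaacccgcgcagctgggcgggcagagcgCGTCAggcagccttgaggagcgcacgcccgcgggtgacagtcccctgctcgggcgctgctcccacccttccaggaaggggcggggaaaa
Plk2 (chr13:110394794-110395043, plus strand): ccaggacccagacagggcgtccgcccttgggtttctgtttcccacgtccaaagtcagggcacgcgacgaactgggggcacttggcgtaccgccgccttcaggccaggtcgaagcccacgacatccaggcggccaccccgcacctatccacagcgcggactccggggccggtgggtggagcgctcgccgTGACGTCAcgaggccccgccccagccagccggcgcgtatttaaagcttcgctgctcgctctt
Plk3 (chr4:117133964-117134213, minus strand): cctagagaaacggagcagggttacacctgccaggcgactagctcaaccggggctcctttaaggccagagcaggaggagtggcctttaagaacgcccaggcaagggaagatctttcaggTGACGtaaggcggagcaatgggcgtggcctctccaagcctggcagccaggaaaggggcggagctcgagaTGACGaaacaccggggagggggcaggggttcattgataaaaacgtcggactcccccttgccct

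The palindromic element occurred in 1 of the 8 promoters, that of Plk2, between 62 and 55 bases before the start, against 1.55% of all 32851 promoters of that length. The core TGACG or its reverse complement occurred in 7 of the 8, against 17.8% of all promoters. In Rgs2 it lay 185 to 181 and 67 to 63 bases before the start, in Rgs4 236 to 232 and 141 to 137, and in Plk3 132 to 128 and 63 to 59. The promoter of Rgs7 held none. The AP-1 site TGANTCA, the EGR sites GCGGGGGCG and GCGTGGGCG, and the CArG box bound by SRF were found in none of the 8 (6.75%, 3.06% and 1.47% of all promoters). A match is a description of the letters in this window, not of binding. The shares over all promoters were not matched for base composition, and the genes were chosen, so no enrichment is read from the counts.

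Of the RGS genes, Rgs2 and Rgs4 were higher in every kainic acid mouse than in every control, and Rgs7 was level in all groups. Rgs2 encodes a small RGS protein that acts mainly on Gq. Its 3 kainic acid arrays read 9.95, 10.33 and 10.43, against 8.26, 8.28 and 8.46 with vehicle and 8.29 to 8.37 in the 4 untreated mice. These are the highest Rgs2 values of the 16 arrays and do not overlap with any other of the 5 groups. The difference from vehicle was 1.91 (SE 0.23, a 3.75-fold higher level). With SL327 before kainic acid, Rgs2 read 9.49, 8.45 and 9.71, so replicates 1 and 3 lay between the kainic acid mice and the controls while replicate 2 lay at the level of the vehicle mice. SL327 alone gave 8.39, 8.37 and 8.43, within the range of the controls.

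Rgs4 encodes a small RGS protein of forebrain neurons that acts on Gi and Gq. It read 9.55, 9.59 and 9.58 with kainic acid and 8.05, 8.05 and 8.18 with vehicle. The untreated mice spread more widely, from 7.66 to 8.31, yet all lay more than 1 log2 unit below the kainic acid mice. The difference from vehicle was 1.48 (SE 0.13, 2.79-fold). In the 3 mice given SL327 and kainic acid it read 8.40, 8.01 and 8.16. Rgs4 thus lay in the control range in replicates 2 and 3 and slightly above it in replicate 1. SL327 alone gave 8.01, 7.96 and 7.95, each below every vehicle array, although inside the untreated range.

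Rgs7 encodes a larger neuronal RGS protein that works as a complex with the G beta subunit Gnb5 and acts on Go. Its 16 values lay between 8.18 and 8.39. The kainic acid mice read 8.19, 8.28 and 8.37, which overlaps with vehicle at 8.23, 8.31 and 8.19. The difference was 0.04 with a 95% confidence interval from -0.10 to 0.17, and group means ran from 8.24 in vehicle to 8.30 with SL327.

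Among the small GTPase genes, Rasl11a had the largest kainic acid difference of the 10 genes and also the widest spread between mice. Rasl11a encodes a Ras-like GTPase that lacks the usual membrane anchor and is known from the nucleolus. Kainic acid mice read 9.74, 11.02 and 10.67, against 8.08, 8.07 and 7.68 with vehicle, a difference of 2.53 (SE 0.28, 5.78-fold). With SL327 and kainic acid the values were 8.88, 7.83 and 8.68. Replicates 1 and 3 lay above every control array and below every kainic acid array, and replicate 2 lay inside the control range.

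Rasd1, also called dexamethasone-induced Ras, encodes a GTPase that dampens G protein and cAMP signalling. It read 9.79, 10.10 and 9.82 with kainic acid and 9.15, 9.13 and 8.98 with vehicle. The difference was 0.82 (SE 0.11, 1.76-fold). The values 9.30, 8.87 and 9.16 under SL327 and kainic acid overlapped with vehicle. Unlike the other members, Rasd1 was higher in each vehicle mouse than in each untreated mouse (8.68 to 8.93), by 0.25 (SE 0.10). This difference was not called.

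Gem belongs to the RGK GTPases, which bind the beta subunit of voltage-gated calcium channels and reduce calcium currents. Gem was the dimmest member. Vehicle mice read 6.59, 6.05 and 6.19, whereas kainic acid mice read 7.17, 7.78 and 7.83, a difference of 1.32 (SE 0.17, 2.49-fold). Under SL327 and kainic acid it read 6.997, 6.68 and 6.94, and here replicate 2 also lay above every vehicle array. One SL327 mouse, at 6.73, lay within that range. For probe sets this dim a log2 difference can understate the change in RNA.

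Rheb, the GTPase that activates the growth regulator mTORC1, differed less but with little spread. Kainic acid mice read 8.61, 8.64 and 8.53, vehicle mice 7.89, 7.65 and 7.78, and the difference was 0.82 (SE 0.08, 1.77-fold). Under the inhibitor the kainic acid mice read 8.003, 7.80 and 8.001. Replicates 1 and 3 lay above every control array, and replicate 2 lay inside the vehicle range.

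Rapgef6 encodes an exchange factor for Rap1 and Rap2. Its brightest probe set read 8.76, 8.77 and 8.91 with kainic acid and 8.02, 7.67 and 7.52 with vehicle (1.07, SE 0.18, 2.11-fold). Under SL327 and kainic acid it read 7.66, 7.52 and 7.44, of which replicate 1 lay inside the vehicle range and replicates 2 and 3 below it. With SL327 alone it read 7.59, 7.18 and 6.83, and 2 of the 3 mice lay below all others of the 16 arrays for this probe set. A pair of further probe sets carry the same name, and they differed from vehicle by 0.87 (SE 0.17) and 1.87 (SE 0.33) with kainic acid. A probe set annotated to both Rapgef6 and its neighbour Fnip1 differed by 0.33 (SE 0.07), so its size varied between the probe sets of the locus.

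Plk2 and Plk3 encode Polo-like kinases that are made after synaptic activity. Plk2 is known in rat hippocampal neurons for phosphorylating the Rap GTPase activating protein SPAR (Sipa1l1), which leads to the loss of SPAR from spines. Plk2 read 9.93, 10.12 and 9.997 with kainic acid and 8.59, 8.61 and 8.46 with vehicle, a difference of 1.46 (SE 0.17, 2.76-fold). With SL327 and kainic acid the values were 9.45, 8.64 and 9.62. As for Rgs2, replicates 1 and 3 were closer to kainic acid than to vehicle, and replicate 2 was near vehicle. Plk3, a stress-responsive relative, read 8.70, 9.02 and 8.91 with kainic acid against 7.75, 7.62 and 7.74 with vehicle (1.17, SE 0.09, 2.25-fold). Plk3 read 7.92, 7.86 and 7.66 when SL327 preceded kainic acid, inside the range of the untreated mice or below it, and below every mouse given kainic acid alone.

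**Figure D1:**
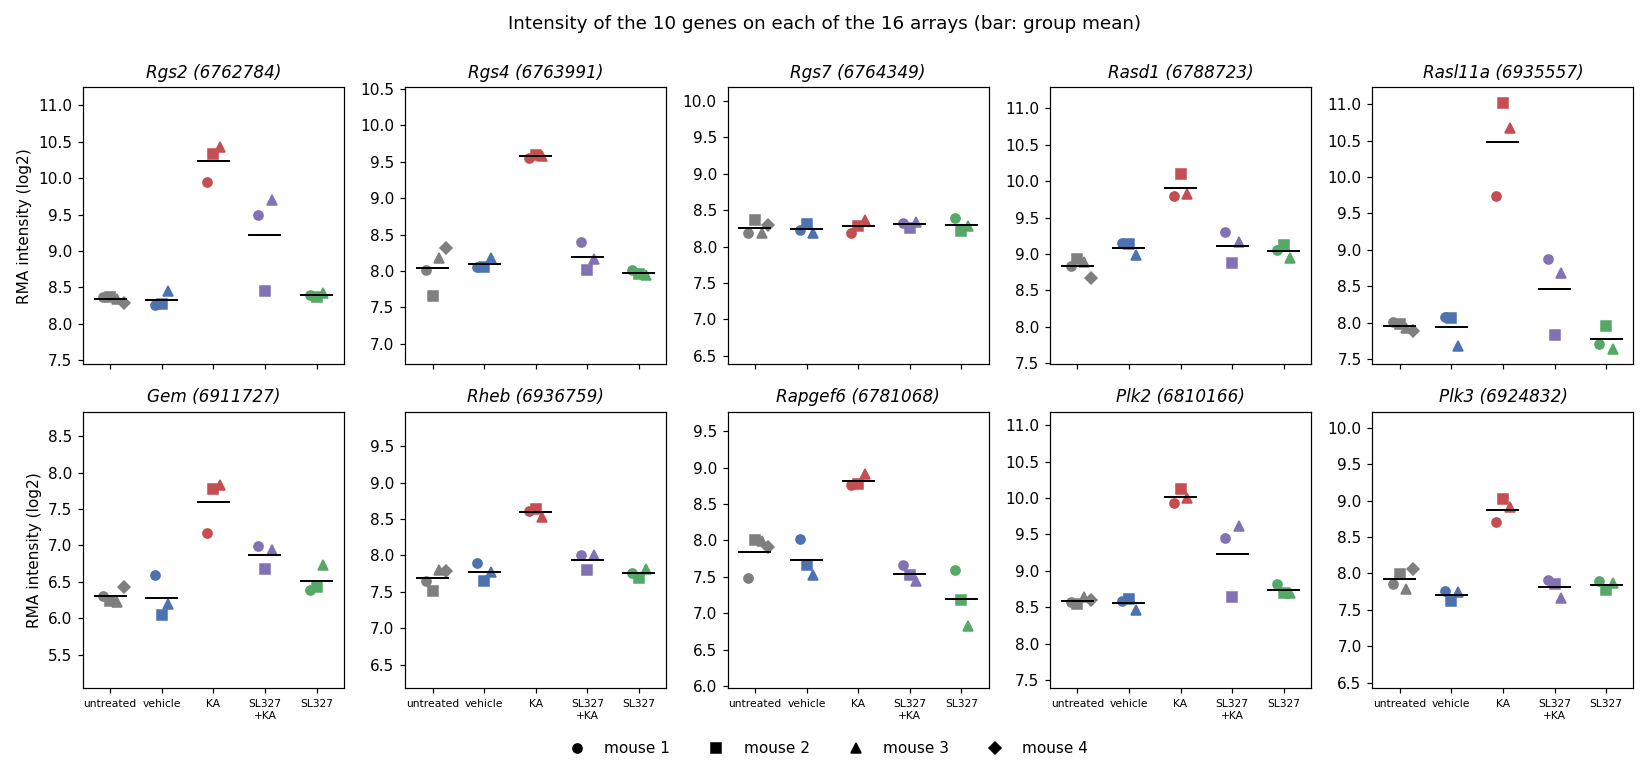
RMA log2 intensity (y axis, the same span of units in each panel) of the 10 genes on each of the 16 arrays, by group (x axis; KA, kainic acid), with symbols for the mouse number within a group and a bar for the group mean. Kainic acid mice sit above all control mice in each panel except Rgs7, and in Rgs2, Rasl11a and Plk2 the second mouse given SL327 and kainic acid (square) sits at control level while the other mice of its group sit between.

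Seen together, 9 of the 10 genes were called higher with kainic acid than with vehicle (limma, adjusted p under 0.05, 5 groups in 1 fit), and in the same 9 the arrays of both groups did not overlap. Of all 15417 annotated probe sets, 4.92% were called higher, 8.41% were called lower and 11.5% did not overlap in the higher direction. The median difference of the members was 1.24 and that of all probe sets -0.03. As this contrast chose the genes, nothing is read from these counts.

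With SL327 before kainic acid, the same 9 genes were lower than with kainic acid alone. This comparison uses the kainic acid arrays again and is also a description. The differences ran from -2.02 (SE 0.28) in Rasl11a, -1.38 (SE 0.13) in Rgs4 and -1.27 (SE 0.18) in Rapgef6 through -1.06 (SE 0.09) in Plk3 and -1.02 (SE 0.23) in Rgs2 to -0.80 (SE 0.11) in Rasd1, -0.78 (SE 0.17) in Plk2, -0.72 (SE 0.17) in Gem and -0.66 (SE 0.08) in Rheb. Rgs7 differed by 0.02. The 9 genes were called lower and their arrays did not overlap, beside 4.09% of all probe sets called lower, 8.15% called higher and 8.95% not overlapping in the lower direction. As the genes were chosen for high kainic acid arrays, nothing is read from these counts either. Leaving out the second inhibitor mouse, the differences of Rgs2 and Plk2 were -0.64 (SE 0.12) and -0.48 (SE 0.07), smaller by more than 1.5 times. In that fit 8 genes were called, and the difference of Gem (-0.63, SE 0.19) was no longer past the threshold. The call of Gem was also lost without replicate 2 (-0.63) or replicate 3 (-0.60) of kainic acid. In a fit of these 2 groups alone, Rgs2, Gem and Plk2 were no longer called.

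The members differed in how much of the kainic acid difference from vehicle was left under SL327. In Plk2, Rgs2 and Gem 46.8%, 46.3% and 45.1% of it was left on average over the 3 mice, and 67.3%, 66.3% and 52.4% without replicate 2. Intermediate shares were left in Rasl11a (20.4%, or 32.9% without replicate 2) and Rheb (19.8%, or 28.0%). In Plk3 9.00%, in Rgs4 6.66% and in Rasd1 2.83% was left, and without replicate 2 the shares were 6.91%, 12.7% and 17.3%. The share for Rapgef6 was negative (-18.1%), since its mean under SL327 and kainic acid lay below that of vehicle. Its other probe sets differed from vehicle by -0.17 and 0.20 in these mice. For comparison, the 108 probe sets that were called higher by at least 0.9 with kainic acid had a median share of 22.8% (quartiles 7.30% and 39.9%), and 29.5% without replicate 2. These shares are ratios of differences that have the vehicle mean in common, and they were not tested against each other. A difference of SL327 alone from vehicle, such as -0.54 in Rapgef6 and 0.24 in Gem, enters them. With SL327 alone as the baseline the difference was 0.82 in Rgs2, 0.50 in Plk2, 0.35 in Gem and 0.34 in Rapgef6. Those from vehicle without SL327 were 1.91, 1.46, 1.32 and 1.07.

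**Figure D2:**
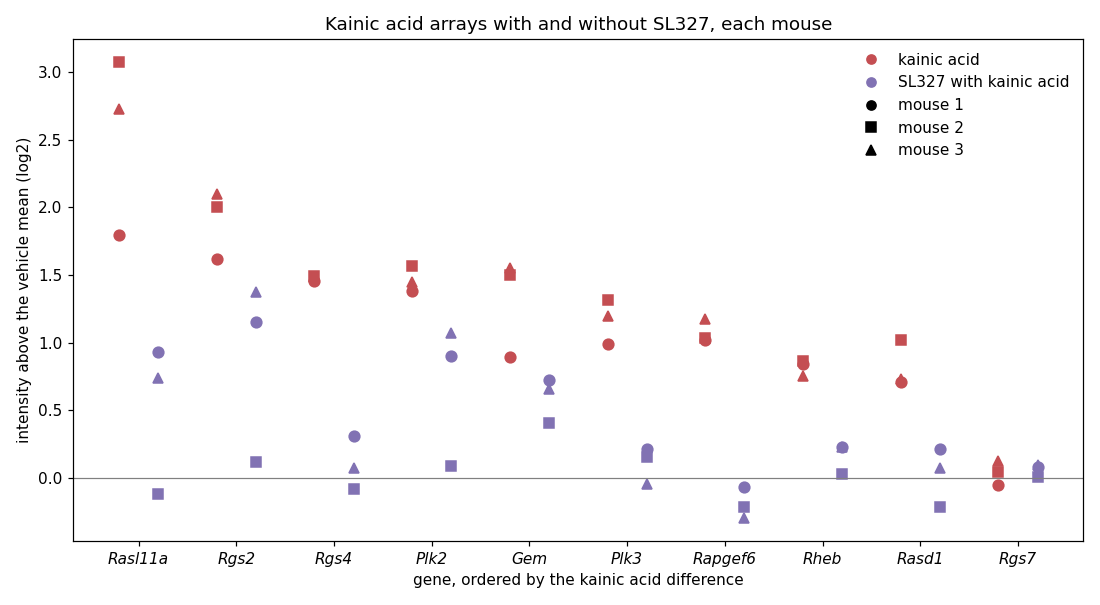
Level of each gene (x axis, ordered by the kainic acid difference) above its vehicle mean (y axis, log2) in each mouse given kainic acid (red) or SL327 and kainic acid (purple), with symbols for the mouse number. In Rgs2 and Plk2 SL327 replicates 1 and 3 reach 60.6% to 73.0% of the mean kainic acid difference and replicate 2 stays at 5.79% to 6.26%. In Rgs4, Plk3, Rasd1 and Rapgef6 the purple symbols lie between -0.30 and 0.31.

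Replicate 2 of the mice given SL327 and kainic acid was the lowest of its group in 8 of the 10 genes, all but Rapgef6 and Plk3. It was the lowest in 29.5% of all annotated probe sets, in 51.4% of the 759 called higher with kainic acid and in 68.5% of the 108 called higher by at least 0.9. In Gem it was 0.40 above the vehicle mean, against 0.72 and 0.66 in replicates 1 and 3, a smaller gap than in Plk2 (0.08 against 0.90 and 1.07).

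Arrays taken to have had no part in choosing the genes are those of SL327 with kainic acid, SL327 alone and untreated mice, and comparisons among them were tested. Because earlier results of all arrays were known when the genes were chosen, these tests are not fully independent of the choice. The response to kainic acid under MEK inhibition, SL327 with kainic acid minus SL327 alone, did not pass the threshold for any member with all 3 mice (0 of 15417 probe sets, 0%, were called higher, and the smallest adjusted p in the table was 0.0561). At an unadjusted p under 0.05, 3 of the 10 genes and 2.66% of all probe sets were higher: Rgs2 by 0.82 (SE 0.23, limma, adjusted p = 0.382), Rasl11a by 0.69 (SE 0.28, adjusted p = 0.516) and Plk2 by 0.50 (SE 0.17, adjusted p = 0.433). Without replicate 2, Rgs2 was higher by 1.20 (SE 0.12, limma, adjusted p = 0.000622) and Plk2 by 0.80 (SE 0.07, adjusted p = 0.000381), both called, as were 0.136% of all probe sets in the higher direction. The SE of Rgs2 was 0.23 with that array, which was left out after its low values were seen. Rasl11a was higher by 1.01 (SE 0.26) without it, short of the threshold (limma, adjusted p = 0.179).

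The remaining members differed less in this comparison, with all 3 mice. Gem (0.35), Rapgef6 (0.34), Rgs4 (0.22) and Rheb (0.18) had positive differences whose 95% intervals include 0, and the upper ends were 0.72, 0.72, 0.50 and 0.36. Rasd1 (0.07, interval -0.16 to 0.30), Rgs7 (0.01, -0.13 to 0.14) and Plk3 (-0.03, -0.23 to 0.16) lay near 0. Without replicate 2 these differences were 0.45 in Gem, 0.35 in Rapgef6, 0.31 in Rgs4, 0.24 in Rheb, 0.19 in Rasd1, 0.03 in Rgs7 and -0.06 in Plk3, and none was called. The other probe sets of Rapgef6 differed by -0.11 and 0.24 with all 3 mice, and that shared with Fnip1 by -0.01. SL327 alone differed from vehicle by -0.54 in the brightest Rapgef6 probe set and by -0.07 and -0.05 in the others. Whether the response under SL327 was smaller than that without it was not tested here for single members, because that comparison contains the contrast that chose them.

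**Figure D3:**
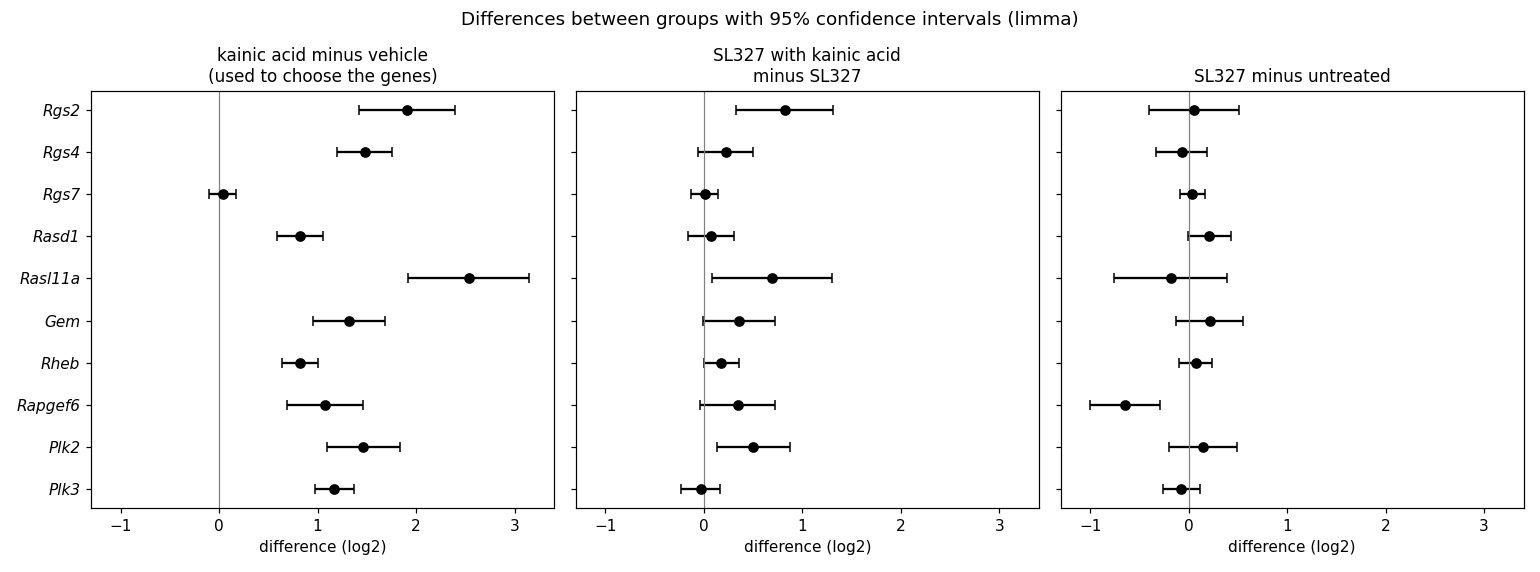
Difference in log2 intensity (x axis) with its 95% confidence interval (limma) for the 10 genes in 3 contrasts, all 16 arrays in the fit. The left panel is the contrast that chose the genes, in the middle panel the intervals of Rgs2, Rasl11a and Plk2 lie above 0, and in the right panel that of Rapgef6 lies below 0.

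Against the untreated mice, Rgs2 and Plk2 had the largest differences in the mice given SL327 and kainic acid. Rgs2 was higher by 0.87 (SE 0.21, limma, adjusted p = 0.0726), Plk2 by 0.65 (SE 0.16, adjusted p = 0.0776) and Gem by 0.57 (SE 0.16, adjusted p = 0.105). None of the 10 genes passed the threshold with all 3 mice, although 0.493% of all probe sets passed it in the higher direction. At an unadjusted p under 0.05, 5 genes and 5.91% of all probe sets were higher. Untreated mice had no injection, so this contrast includes that of the injection. Rasd1, 1 of the 5, was 0.28 above untreated mice but 0.02 above vehicle mice. Against vehicle, 3 genes and 1084 of all 15417 probe sets were higher at an unadjusted p under 0.05. Without replicate 2, Rgs2 was higher by 1.25 (SE 0.11, limma, adjusted p = 0.000156) and Plk2 by 0.95 (SE 0.07, adjusted p = 4.2e-05), and 0.817% of all probe sets were called higher. Gem was called when replicate 1 of kainic acid, an array outside this contrast that enters the common estimate of the spread, was left out (0.57, limma, adjusted p = 0.0458). Against vehicle, 0 of the 10 genes and 0.383% of all probe sets were called higher with all mice, and 2 genes, Rgs2 (1.26) and Plk2 (0.98), and 0.713% of all probe sets without replicate 2.

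With SL327 alone no member passed the threshold against either control group. Compared with untreated mice, 0 of the 10 genes and 2.13% of all probe sets were called in either direction. Rapgef6 came closest, with a difference of -0.65 (SE 0.17, limma, adjusted p = 0.0607), and was called without untreated replicate 1 (-0.77, adjusted p = 0.0413), without SL327 replicate 1 (-0.84, adjusted p = 0.0385) or under the filter of the methods (adjusted p = 0.0382). The other probe sets of Rapgef6 differed by -0.25 and -0.30, with intervals that include 0. Rasd1 was 0.21 higher (SE 0.10, limma, adjusted p = 0.314), with each SL327 mouse above each untreated mouse, a direction it shared with the vehicle mice. Plk2, 0.14 higher (SE 0.16), did not overlap either. The same held for 1455 of all 15417 probe sets in the higher direction, so nothing is read from these members. Compared with vehicle, 0 of the 10 genes and 2.97% of all probe sets were called. The SL327 arrays lay below every vehicle array in Rgs4 (-0.12), and above every one in Plk2 (0.18) and Plk3 (0.14). Of all 15417 probe sets, 1253 lay below and 3019 above without overlap, so nothing is read from these members. Vehicle differed from untreated in 0 of the 10 genes and 0% of all probe sets (222 probe sets were higher and 621 lower at an unadjusted p under 0.05). Besides Rasd1 only Plk3 did not overlap, with vehicle lower by 0.21 (SE 0.09). Of all 15417 probe sets, 262 did not overlap in the higher direction and 685 in the lower direction, so nothing is read from these members.

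The wider pathways were described through 117 further genes in 9 lists, of which 95 were measured. Of these, 8 were called higher and 9 lower with kainic acid than with vehicle (limma, adjusted p under 0.05), and 4 were called higher and 6 lower when the inhibitor was given before kainic acid. These are 8.42% and 9.47% of the measured list genes in the first comparison, beside 4.92% and 8.41% of all probe sets, and 4.21% and 6.32% in the second, beside 8.15% and 4.09%. The shares lay near those over all probe sets, so they are no result about the lists. The list medians ran from -0.07 in G alpha genes to 0.50 in RGK genes with kainic acid, beside -0.03 over all probe sets. The counts depended on single arrays: leaving out 1 array at a time gave 7 to 21 calls in the first comparison, the fewest without kainic acid replicate 2, and 4 to 12 in the second, again the fewest without that array, and both counts were lower in fits of the compared groups alone (9 and 4 calls). Without replicate 2 of the inhibitor mice the second count was 5, and Gnaq, Rem2, Rasl10a, Rapgef3 and Mlst8 lost their calls. The calls of Rgs16, Rem2, Rap1b and Rasl11b in the first comparison held under each alternative and each array left out.

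Of 12 other RGS genes measured, only Rgs16 was called. It rose with kainic acid, from 8.07, 7.93 and 8.22 with vehicle to 8.37, 8.52 and 8.44 (0.37, SE 0.08), and was 0.43 lower (SE 0.08) with SL327 and kainic acid, at 8.10, 8.03 and 7.91. Rgs16 encodes a small RGS protein like Rgs2 and Rgs4, and its kainic acid mice overlapped with neither of these groups. Of the 5 partners of Rgs7, Gnb5 was 0.21 higher with kainic acid (SE 0.06), although this call was lost in 5 of the 16 fits without 1 array. Rgs7bp, which anchors the Rgs7 complex at the membrane, was 0.38 lower (SE 0.08) when SL327 was given before kainic acid. It was also 0.34 lower (SE 0.08) with SL327 alone (7.88, 7.80 and 7.64) than with vehicle (8.14, 8.10 and 8.10), a call held in 5 of the 16 fits without 1 array. Of 12 G alpha genes, Gnaq, which encodes the Gq alpha subunit that Rgs2 acts on, was 0.17 lower with kainic acid (SE 0.04), a call held in 12 of the 16 fits without 1 array.

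Both measured relatives of Gem in the RGK family rose with kainic acid and were lower with SL327 and kainic acid than with kainic acid alone. Rem2, an activity-regulated RGK GTPase of neurons, read 8.31, 8.36 and 8.23 with kainic acid against 7.82, 7.86 and 7.58 with vehicle (0.55, SE 0.10). Under SL327 and kainic acid it read 8.14, 7.83 and 7.88, a difference of -0.35 (SE 0.10) from kainic acid alone whose call held in 11 of the 16 fits without 1 array. Rrad read 6.95, 7.49 and 7.04 with kainic acid against 6.70, 6.73 and 6.69 with vehicle (0.46, SE 0.11), and 6.72, 6.61 and 6.75 with SL327 and kainic acid, a difference of -0.47 (SE 0.11). Kainic acid replicate 2 carries much of this, and without it the differences were 0.29 (SE 0.07) and -0.31 (SE 0.07). Rrad was dim, like Gem, and would also be left out under the filter of the methods.

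Among 21 other Ras-like GTPases, 3 rose and 3 fell with kainic acid. Rasl11b, a paralogue of Rasl11a, read 8.46, 8.45 and 8.52 against 7.88, 7.78 and 7.72 with vehicle (0.68, SE 0.12), and under SL327 and kainic acid 8.40, 7.78 and 8.28. As in Rasl11a and Plk2, replicate 2 of these mice was the lowest and lay at vehicle level. Rap1b, a substrate of Rapgef6, rose by 0.32 (SE 0.07). Rasl10a fell by 0.48 (SE 0.12), from 8.52, 8.51 and 8.33 to 7.94, 7.90 and 8.07, and was 0.42 higher (SE 0.12) with SL327 and kainic acid, a call that held in 3 of 8 alternatives. Rap2b fell by 0.20 (SE 0.06), a call that held in 4 of 9 alternatives, and was 0.31 higher (SE 0.06) with SL327 and kainic acid, a call that held throughout. The fall of these genes accompanied the lower dentate granule cell and higher interneuron markers given above, whose part was not tested.

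**Figure D4:**
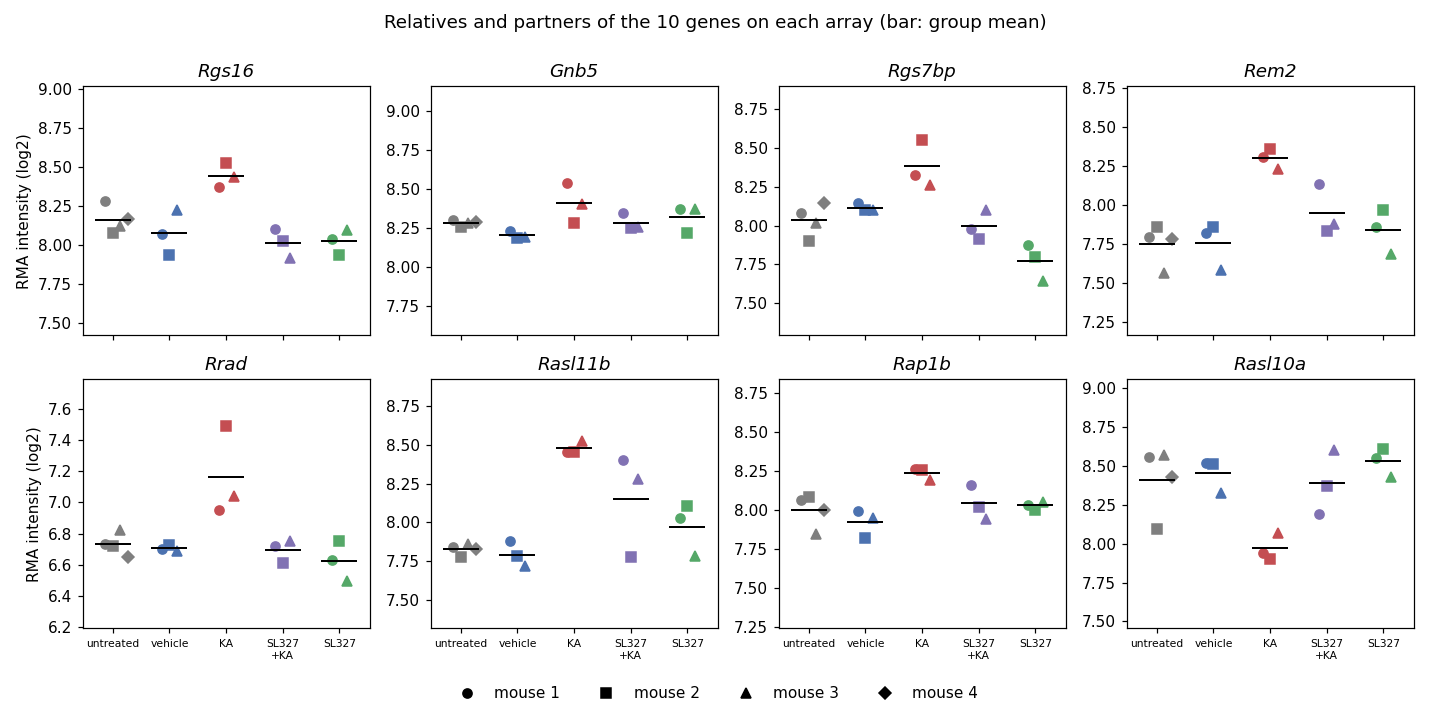
RMA log2 intensity (y axis) of 8 relatives or partners of the 10 genes on each array, by group (x axis; KA, kainic acid), with symbols for the mouse number and a bar for the group mean. All panels span the same number of log2 units. Rem2, Rrad and Rasl11b are highest with kainic acid and Rasl10a is lowest.

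The regulators of Rap and Ras changed little. Of 13 exchange factors, Rasgrf2 (-0.29, SE 0.08) and Rapgef5 (-0.20, SE 0.05) fell with kainic acid, and of 15 GTPase activating protein genes Rasa2 rose by 0.28 (SE 0.07) and Rasa1 fell by 0.32 (SE 0.10). The call of Rasa1 held in 6 of the 16 fits without 1 array, and that of Rasa2 in 14. Rasa2 was dim and would be left out under the filter of the methods. Rasa2 was 0.34 lower (SE 0.07) with SL327 before kainic acid. Neither of the 2 other measured Polo-like kinases was called. Of 13 genes of the Rheb and mTORC1 pathway, Mlst8 (-0.15, SE 0.04) and Rragc (-0.25, SE 0.07) fell with kainic acid, calls that each held in 11 of the 16 fits without 1 array.

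In the same pathway Ddit4, which encodes the stress-induced mTORC1 inhibitor REDD1, was higher in each mouse given SL327, with or without kainic acid, than in each untreated mouse. SL327 mice read 9.16, 9.17 and 8.98, mice with SL327 and kainic acid 9.15, 8.94 and 9.10, and untreated mice 8.26, 8.08, 8.46 and 8.45. Mice given kainic acid alone, at 8.96, 8.69 and 8.93, also lay above every untreated mouse and overlapped with those given SL327 and kainic acid. Vehicle mice read 8.56, 8.69 and 8.39, and replicates 1 and 2 of them also lay above every untreated mouse. Untreated mice had no injection, so differences from them also include that of the injection. The differences of the SL327 groups from untreated were 0.79 (SE 0.10, limma, adjusted p = 0.00465) and 0.75 (SE 0.10, adjusted p = 0.00538), and both calls held in the 16 fits without 1 array but not in a fit of the compared groups alone. The choroid plexus markers also varied in these mice (median 0.23 to 1.06 with SL327 alone, -0.37 to 0.77 with SL327 and kainic acid, -0.32 to 2.05 in untreated mice), and their part was not tested. Against vehicle, Ddit4 was higher with SL327 alone by 0.56 (SE 0.11), and so were Tbc1d7, a subunit of the TSC complex that inhibits Rheb, by 0.47 (SE 0.11) and Mlst8, a subunit of mTORC1 itself, by 0.22 (SE 0.04). The calls held in 11, 6 and 11 of the 16 fits without 1 array. Of the 95 measured list genes, 3.16% were called higher and 1.05% lower with SL327 alone than with vehicle. Of all 15417 probe sets, 396 were called higher and 62 lower. Against untreated mice 1.05% of the list genes were called higher in each SL327 group. With SL327 alone 231 of all probe sets were called higher there, and with SL327 and kainic acid 76. No result about the lists is read from these counts. None of the 95 measured list genes, Ddit4 among them, was called in SL327 with kainic acid minus vehicle.

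The genes most like each strong member were found by the root mean square difference over the 16 arrays, each gene taken relative to its own vehicle mean, among 13179 candidates. They describe the pattern and share the same arrays, so no test is given. Nearest to Rgs2 were Tiparp (0.195), Nr4a3 (0.221) and Errfi1 (0.231), and nearest to Plk2 were Jun (0.142), Pcdh8 (0.172) and Spty2d1 (0.201). Those of Gem were Adamts1 (0.143), Nr4a2 (0.167) and Csrnp1 (0.185). Nr4a3, Tiparp and Fosl2 lay nearest to Rasl11a (0.253, 0.286 and 0.319).

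The members with little of the difference from vehicle left under SL327 had other neighbours. Rgs4 lay nearest to Spry2 (0.156), Homer1 (0.161) and Frmd6 (0.176), which were between 1.41 and 1.61 higher with kainic acid than with vehicle and between -0.12 and -0.02 from vehicle with SL327 and kainic acid. Plk3 lay nearest to Midn (0.123), Slc2a1 (0.137) and Rnf217 (0.144). Nearest to Rapgef6 were B230216N24Rik (0.265), Dusp6 (0.285) and Dnajb5 (0.288). The neighbours of Rgs2 were 0.65, 0.70 and 0.82 above vehicle with SL327 and kainic acid. These arrays entered the search for neighbours, so such levels follow from those of the members and are no separate result.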

How the data were processed

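RNA of 16 single hippocampi was read on Affymetrix Mouse Exon 1.0 ST arrays. The deposited log2 intensities were made by the authors with RMA in the oligo package (versions not given in the sources used here) and were used without further normalization. Their number, 3 or 4 arrays a group, limits the precision. Symbols come from GEO's platform annotation: 14704 probe sets have 1 gene, 713 several and 4955 none, and a shared probe set was named for no member. All 15417 annotated probe sets entered 1 limma 3.58.1 fit (R 4.3.3) of 5 group means with empirical Bayes moderation (11 residual, 2.89 prior degrees of freedom). Tests were two-sided, adjusted by Benjamini and Hochberg over all of them, with a threshold of 0.05, and the code was tested on simulated data. Groups came from the labels. Arrays from later times were not analysed here.

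Members and lists were chosen with earlier results of these data known. Named are all members, the 3 genes nearest to each member with a kainic acid difference of at least 0.9, and up to 4 called genes a list. Mice of 1 number did not deviate together (median correlations -0.02 to 0.02), so numbers were not used as pairs. Alternatives were the filter of the methods, unnamed probe sets, centring, quantile normalization, fits of the compared groups alone, a robust trend, the mean over probe sets, a replicate block, pooled controls and each array left out. The replicate block used replicates 1 to 3 only and so left out untreated replicate 4. Protein sequences were not used here. Figures were drawn in Python 3.11.15 with matplotlib 3.10.9.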

Additional observations from a re-analysis of the deposited data

How the results depend on the processing

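The counts of members called with kainic acid against vehicle (9) and with SL327 before kainic acid against kainic acid alone (9) kept their direction under every alternative, with 9 and 8 to 9 calls when 1 array was left out; the second count was 6 in a fit of its groups alone and 8 under the filter of the methods, which leaves out Gem. The replicate block gave 9 calls in both, 0 in the 6 other comparisons and changed no call of a member. Of the single member values, 641 kept direction and side of the threshold under the alternatives other than leaving out an array, 4 gained and 3 lost a call, and 14 changed sign. With 1 array left out, 1239 kept both, 9 gained a call, 3 lost it and 29 changed sign. The cause of these changes was not tested.

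Under the filter of the methods, SL327 minus untreated had 1 member called, Rapgef6. With untreated and vehicle mice pooled as the control, 2 members (Rgs2 and Plk2) were called higher with SL327 and kainic acid and 1 (Rapgef6) lower with SL327 alone. Leaving out arrays gave 0 to 2 members in SL327 with kainic acid minus vehicle, minus SL327 and minus untreated, and 0 to 1 in SL327 minus untreated.

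Sign changes were limited to differences near 0. Centring on the array median and quantile normalization gave -0.020 and -0.022 for Rgs7 in SL327 with kainic acid minus kainic acid. In vehicle minus untreated they gave 0.012 and 0.028 for Rgs2, 0.010 and 0.026 for Rgs7, and 0.017 and 0.026 for Rasl11a, and quantile normalization gave 0.00043 for Plk2. With the replicate block, which also left out untreated replicate 4, Gem was 0.016 in vehicle minus untreated and Rgs4 0.020 in SL327 minus untreated. With pooled controls, Plk3 was -0.017 in SL327 with kainic acid, and Rasd1 was 0.10 and Rheb 0.034 in SL327, each minus control.

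With 1 array left out, Rgs7 ran from -0.0062 to 0.082 in kainic acid minus vehicle, -0.022 to 0.066 in SL327 with kainic acid minus kainic acid, -0.034 to 0.054 in the same group minus SL327, -0.051 to 0.018 in vehicle minus untreated and -0.0095 to 0.078 in SL327 minus untreated. Rgs4 ran from -0.0059 to 0.19 in SL327 with kainic acid minus vehicle, -0.074 to 0.14 in vehicle minus untreated and -0.20 to 0.020 in SL327 minus untreated. Rasd1 ran from -0.071 to 0.14 in SL327 with kainic acid minus vehicle, -0.097 to 0.0035 in SL327 minus vehicle and -0.026 to 0.19 in SL327 with kainic acid minus SL327, where Plk3 ran from -0.087 to 0.042. Rheb ran from -0.076 to 0.046 in SL327 minus vehicle. In vehicle minus untreated, Rgs2 ran from -0.076 to 0.021, Rasl11a from -0.078 to 0.12, Gem from -0.18 to 0.087 and Plk2 from -0.066 to 0.0097.

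For the pathway lists, where the same alternatives were added after the data had been seen, no called gene changed sign, and calls were lost 54 times of 281 under the other alternatives. Fits of the compared groups alone gave 9 calls in kainic acid minus vehicle (17 in the fit of all groups), 4 in SL327 with kainic acid minus kainic acid (10), and 0 in SL327 with kainic acid minus untreated and 0 in SL327 minus untreated (1 each). SL327 minus vehicle (4) gave 2 with unnamed probe sets, 2 when centred and 2 after quantile normalization. SL327 minus untreated gave 2 under the filter, 2 after quantile normalization and 2 with the robust trend. With 1 array left out the counts ran from 7 to 21, 4 to 12, 0 to 5 (SL327 minus vehicle), 1 to 3 (SL327 with kainic acid minus untreated) and 1 to 2 (SL327 minus untreated).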
